A study of Mus musculus with 4 samples.

Results

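The 6 genes described here activate, inactivate, import or sense thyroid hormone: the deiodinases *Dio1*, *Dio2* and *Dio3*, the receptors *Thra* and *Thrb*, and the transporter *Slc16a10*. They were chosen by name, for these roles, from the 19030 genes whose expression was listed in ingWAT, the inguinal white adipose tissue that lies under the skin of the mouse. All 6 were listed, and 4 of them were expressed highly enough to be compared between genotypes.

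The thyroid secretes mostly thyroxine, a prohormone that enters cells through membrane transporters, *Slc16a10* among them. Inside the cell the type 2 deiodinase, the product of *Dio2*, removes an iodine from its outer ring and makes triiodothyronine, the form that binds the nuclear receptors encoded by *Thra* and *Thrb*. *Dio1* encodes an enzyme found mainly in liver, kidney and thyroid, and *Dio3* the enzyme that inactivates both hormones. In brown fat *Dio2* is known as a gene that adrenergic signalling turns on, and the hormone made there acts together with cyclic AMP on *Ucp1*, the gene for the uncoupling protein of thermogenesis.

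The study compared Ctrl mice, in which *Oct3* (gene symbol *Slc22a3*, a transporter that clears catecholamines) carries loxP sites (Oct3 fl/fl), with cKO mice, which carry the same floxed alleles and in addition an Adiponectin-Cre transgene that deletes *Oct3* in cells that express adiponectin, chiefly adipocytes. The 4 libraries, 2 from each genotype, came from ingWAT of male C57BL/6 mice aged 3 months and kept at 4°C. Both genotypes had been in the cold, so no comparison here gives the effect of cold itself. How many mice a library holds was not given, and p-values therefore measure the spread between these libraries, which may be technical. In bulk tissue, fewer cells of a type and less RNA per cell cannot be told apart.

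Expression was given as FPKM, a read count scaled to transcript length and to the reads of the library, so that levels can be set side by side between genes. The depth, estimated from the spacing of low values, lay between 17400000 and 18150000 reads in the 4 libraries. *Slc22a3* itself, the check of the genotype, had an FPKM of 16.95 and 17.68 in the Ctrl libraries and 9.07 and 9.5 in the cKO libraries, a log2 fold change of -0.83 (standard error 0.066, Benjamini-Hochberg adjusted p = 0.000439 by limma). Of the 12658 genes tested, those whose FPKM averaged at least 1 over the libraries, 25.8% passed an adjusted p under 0.05, 12% higher and 13.8% lower in cKO. The genotypes also differed in marker genes of other cell types. All 11 tested of 13 skeletal muscle markers were lower in cKO, with a summed FPKM of 2532 and 1703 in Ctrl and 10.85 and 8.87 in cKO, and none of the 13 was at 0 in any library. All 8 B and T cell markers were higher in cKO, with a summed FPKM of 248 and 275 in Ctrl and 389 and 452 in cKO. Of 5 fibroblast and progenitor markers 4 were lower in cKO. Summed over the 5, FPKM was 846 and 727 in Ctrl and 446 and 479 in cKO. Of 4 tested Schwann cell and nerve markers 3 were lower and 1 higher. Of 6 macrophage markers 4 were lower and 1 higher, and of 5 endothelial markers 3 were lower. The part of all these cells in the results below was not tested. Of the 6 adipocyte markers 3 were lower in cKO, and the summed FPKM of the 6 was 20839 and 21105 in Ctrl and 16945 and 17264 in cKO. Most of that sum was *Fabp4*, at 15874 and 16398 in Ctrl and 13456 and 13616 in cKO. The difference of *Fabp4* did not pass (adjusted p = 0.225 by limma). The 6 listed markers of thyroid follicular cells were at or under an FPKM of 0.09 in every library.

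The 3 deiodinases are selenoproteins: each reads a TGA codon in its active site as selenocysteine instead of stopping there. The stretch around the first annotated selenocysteine codon is shown because the 3 enzymes share this codon in differing surroundings, and because it makes them depend on the selenocysteine machinery described further on. Each line gives 15 bases on either side of the codon, 5′ to 3′ in the sense of the gene and with the TGA in capitals, from the GENCODE M21 transcripts (build GRCm38).
Dio1: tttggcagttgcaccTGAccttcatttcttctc
Dio2: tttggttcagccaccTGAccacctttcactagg
Dio3: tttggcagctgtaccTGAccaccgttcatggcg
The codons lie at chr4:107297700-107297702 on the minus strand for *Dio1*, at chr12:90729823-90729825 on the minus strand for *Dio2* and at chr12:110279739-110279741 on the plus strand for *Dio3*. Over the 33 bases *Dio1* and *Dio3* were identical at 22 positions, *Dio2* and *Dio3* at 21, and *Dio1* and *Dio2* at 18. *Dio2* carries 2 annotated selenocysteine codons and the others 1.

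*Dio2* was the most highly expressed deiodinase of this tissue and the member with the largest difference between the genotypes. *Dio2* (Entrez gene 13371, chr12:90724552-90739038, minus strand, GRCm38.p6) had an FPKM of 1.98 and 3.17 in the Ctrl libraries and 11.73 and 10.77 in the cKO libraries. Both cKO libraries lay far above both Ctrl libraries, an order that 31.9% of all genes tested showed, and the gap between the genotypes was much wider than the one between the 2 Ctrl libraries. The mean rose from 2.58 ± 0.841 (SD, n = 2) to 11.3 ± 0.679 (SD, n = 2), 4.37 times the Ctrl level. The log2 fold change was 1.80, computed on log2(FPKM + 1) and so smaller than the plain ratio for a low gene (standard error 0.152, 95% interval 1.44 to 2.16, Benjamini-Hochberg adjusted p = 0.000543 by limma). By this log2 fold change *Dio2* stood at rank 12 of the 12658 genes, counted from the largest rise, and 0.0948% of all genes tested had a log2 fold change at least that high. Among the falls, those of the tested muscle markers were larger than this. At the estimated depth the values stood for about 208 and 332 reads in Ctrl and 1180 and 1092 reads in cKO. The counting intervals at 95% were 1.72 to 2.27 and 2.84 to 3.53 FPKM in Ctrl and 11.1 to 12.4 and 10.1 to 11.4 FPKM in cKO, so the 2 Ctrl intervals lay apart from each other and the 2 cKO intervals overlapped. Such intervals cover counting error only. Ctrl replicate 1, the lower of the Ctrl libraries for *Dio2*, was the higher of them for the summed muscle markers.

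**Figure D1:**
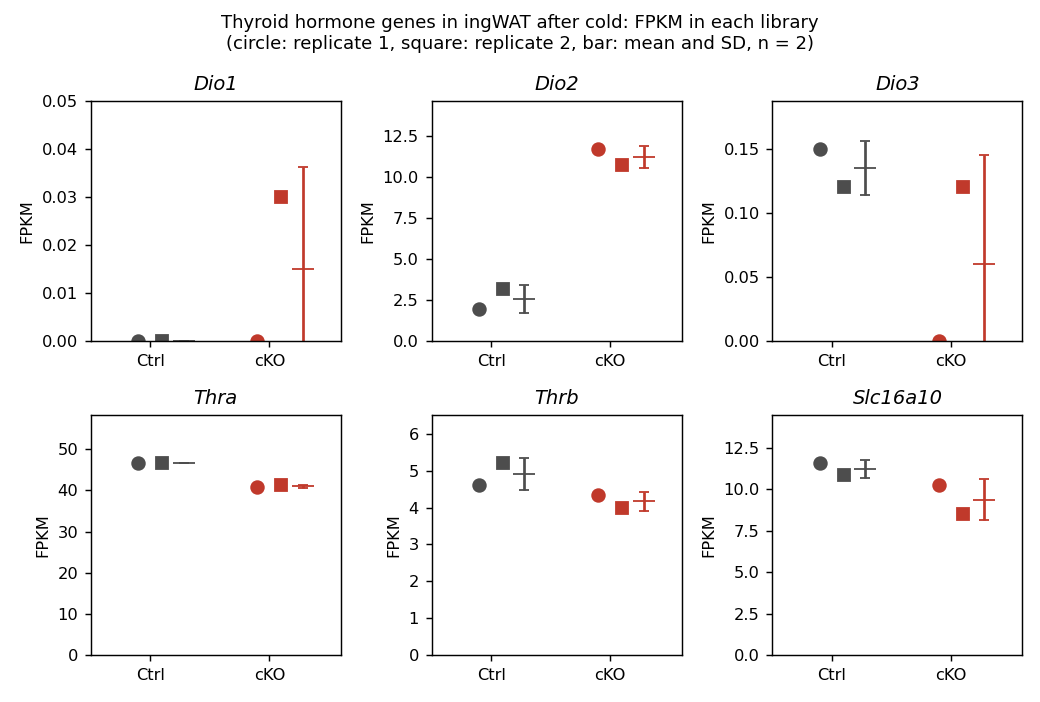
FPKM of the 6 thyroid hormone genes in each library (circle, replicate 1; square, replicate 2), with the mean and SD of 2 libraries per genotype beside them; each panel has its own axis from 0, where the SD bars end. *Dio2* sits at 1.98 and 3.17 in Ctrl and at 11.73 and 10.77 in cKO, *Thra*, *Thrb* and *Slc16a10* lie slightly lower in cKO, and *Dio1* and *Dio3* stay at or under 0.15 in every library.

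The other deiodinases were close to or below what the depth could show. *Dio1* (Entrez gene 13370, chr4:107291465-107307168) was listed at 0 in Ctrl replicate 1, Ctrl replicate 2 and cKO replicate 1, and at an FPKM of 0.03 in cKO replicate 2, which stood for about 1 read. The upper limit that a count of 0 allows, 3 reads, was worth between 0.0999 and 0.104 FPKM for *Dio1* in the 4 libraries. *Dio3* (Entrez gene 107585, chr12:110279230-110281097) had an FPKM of 0.15 and 0.12 in Ctrl and 0 and 0.12 in cKO, or about 5, 4, 0 and 4 reads. For neither gene was a difference between the genotypes detectable at this depth, and the highest value of either gene was many times below the lowest of *Dio2*. *Dio2* thus made up 93% and 96.4% of the summed deiodinase FPKM in the Ctrl libraries and 100% and 98.6% in the cKO libraries.

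The sequence just before the RefSeq start of *Dio2* is shown because cyclic AMP response elements are a known route from adrenergic signalling to this gene. It covers 250 bases at chr12:90739039-90739288 on the minus strand (RefSeq, GRCm38.p6), written 5′ to 3′ toward the gene, with a full cyclic AMP response element, TGACGTCA, in capitals.
Dio2 upstream: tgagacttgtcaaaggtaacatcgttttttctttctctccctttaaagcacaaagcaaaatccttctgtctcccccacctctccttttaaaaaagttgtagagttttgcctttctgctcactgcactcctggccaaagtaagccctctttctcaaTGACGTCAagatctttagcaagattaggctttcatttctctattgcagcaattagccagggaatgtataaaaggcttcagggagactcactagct
The element occupies positions -95 to -88 counted from the RefSeq start, at chr12:90739126-90739133. The GENCODE transcript of *Dio2* begins 600 bases further downstream. Searched on both strands of the window from 250 bases before to 50 after each start, TGACGTCA was found in 588 of 32851 windows, or 1.79%, and in 2.89% of the windows of genes tested here. A window was given for 5 of the 6 members, all but *Thra*, and the full element stood in that of *Dio2* alone. The shorter TGACG, which lies within the full element and was found in 20.8% of all windows, was also in 1 of the 2 windows of *Thrb*, at position -56. A match is a description of the letters and was not tested as a binding site. Whether the element has a part in the difference of *Dio2* between the genotypes was not tested.

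Across the 4 libraries the genes whose profile lay nearest to that of *Dio2* were *Kng2*, *Pdk4* and *Elovl3*. Nearness was measured over 12657 other genes as the Euclidean distance between values of log2(FPKM + 1), each minus the gene's own mean. *Kng2*, which encodes a kininogen, was the nearest, at a distance of 0.08, with an FPKM of 2.93 and 4.49 in Ctrl and 16.27 and 13.78 in cKO. *Pdk4*, a kinase that inhibits pyruvate dehydrogenase, followed at 0.151, and *Elovl3*, a fatty acid elongase of brown fat, at 0.202. The 3 genes were picked by their values in these same libraries, so their likeness to *Dio2* is no separate result. In all 4 of these genes Ctrl replicate 1 was the lowest library and cKO replicate 1 the highest. *Ucp1* had the same order, with an FPKM of 335 and 446 in Ctrl and 1658 and 1420 in cKO. The ratio of *Ucp1* to *Dio2* FPKM was 169 and 141 in Ctrl and 141 and 132 in cKO, a span far smaller than the change of either gene, whereas that of *Adipoq*, the adipocyte gene for adiponectin, to *Dio2* was 771 and 468 in Ctrl and 82.4 and 97.1 in cKO. All 7 brown and beige markers were higher in cKO, beside 12% of all genes tested. Their summed FPKM was 1558 and 1850 in Ctrl and 4912 and 4155 in cKO.

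**Figure D2:**
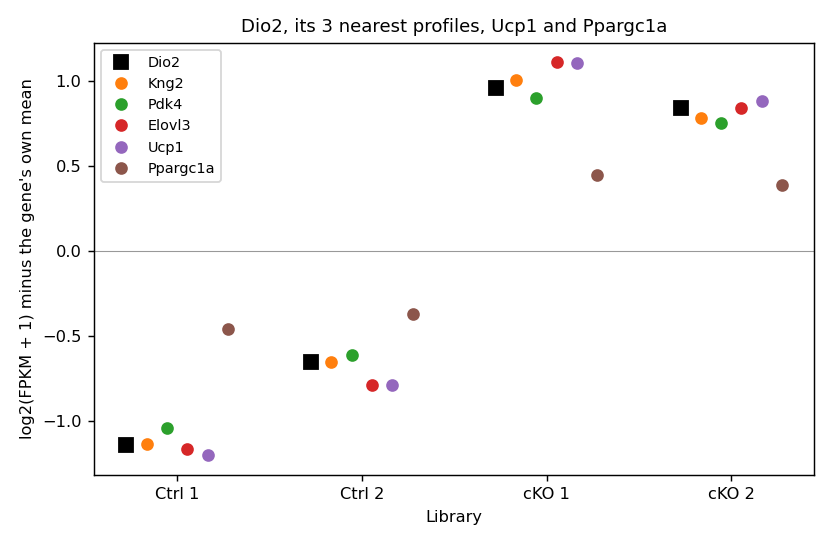
Values of log2(FPKM + 1), each minus the gene's own mean, in the 4 libraries for *Dio2* (square), its 3 nearest genes *Kng2*, *Pdk4* and *Elovl3*, and *Ucp1* and *Ppargc1a* (circles, set side by side within a library). In every gene shown the 2 Ctrl libraries lie below 0 and the 2 cKO libraries above it, with a smaller span for *Ppargc1a*, whose log2 fold change was 0.83 against 1.80 for *Dio2*.

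The receptors were expressed at very different levels, and of the pair only *Thra* passed the test, with a small fall in cKO. *Thra* (Entrez gene 21833, chr11:98740776-98769006, plus strand), which encodes the receptor thyroid hormone receptor α and a splice form that does not bind the hormone, had an FPKM of 46.69 and 46.77 in Ctrl and 40.81 and 41.3 in cKO. The genotypes did not overlap, with cKO below Ctrl as for 34.6% of all genes tested, and the libraries within each were close together. The mean fell from 46.7 ± 0.0566 (SD, n = 2) to 41.1 ± 0.346 (SD, n = 2), to 0.879 of the Ctrl level, and the log2 fold change was -0.18 (standard error 0.0536, 95% interval -0.31 to -0.06, Benjamini-Hochberg adjusted p = 0.045 by limma). This call was at the edge of the threshold: the direction stayed the same under all 11 other settings, but the adjusted p was above 0.05 under 9 of them, with a range from 0.0357 to 0.181, the latter without Ctrl replicate 1. Of these settings, only median-of-ratios scaling and quantile normalization could have turned the direction, since the libraries of the genotypes did not overlap. The table does not separate the splice forms of *Thra*.

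*Thrb* (Entrez gene 21834, chr14:17659225-18040097, plus strand), the gene for thyroid hormone receptor β, had an FPKM of 4.61 and 5.22 in Ctrl and 4.35 and 3.99 in cKO. The genotypes did not overlap, with cKO below Ctrl as for 34.6% of all genes tested, but cKO replicate 1 and Ctrl replicate 1 were close. The means were 4.92 ± 0.431 (SD, n = 2) and 4.17 ± 0.255 (SD, n = 2), and the log2 fold change of -0.19 did not pass (standard error 0.0929, 95% interval -0.41 to 0.03, Benjamini-Hochberg adjusted p = 0.174 by limma). Its size was like that of *Thra*, with a wider error. The ratio of *Thra* to *Thrb* FPKM was 10.1 and 8.96 in Ctrl and 9.38 and 10.4 in cKO, and these ratios overlapped between the genotypes.

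*Thra* overlaps at its end with *Nr1d1*, the gene for the nuclear receptor and clock repressor Rev-erbα, which is read from the opposite strand (chr11:98767932-98775377). The transcript Thra-201 of the GENCODE M21 annotation shares 263 exonic bases with *Nr1d1*, at chr11:98768157-98768419, or 10.7% of its 2452 bases and 9.67% of the 2721 bases of *Nr1d1*, and the shorter Thra-202 shares none. Strand marking is not stated for these libraries, and without it reads from the shared stretch cannot be told apart. *Nr1d1* had an FPKM of 8.74 and 9.78 in Ctrl and 12.52 and 12.88 in cKO and rose by a log2 fold change of 0.42 (Benjamini-Hochberg adjusted p = 0.00775 by limma). In the reported fit the overlapping partners were thus called in opposite directions, the small fall of *Thra* at the edge of the threshold. The ratio of *Thra* to *Nr1d1* FPKM was 5.34 and 4.78 in Ctrl and 3.26 and 3.21 in cKO. The part of the shared stretch in either value was not tested. Of the other neighbours, *Med24* with a log2 fold change of 0.04 and *Msl1* with -0.05 did not pass, and *Csf3* was at or under an FPKM of 0.04. The 3 genes nearest in profile to *Thra* were *Mtr*, *Nrp1* and *Slc35a1*, at distances from 0.00912 to 0.0133. Their log2 fold changes, from -0.19 to -0.17, are like that of *Thra* because of how they were picked.

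The transporter *Slc16a10* (Entrez gene 72472, chr10:40033532-40142270, minus strand), which carries aromatic amino acids and thyroid hormones, had an FPKM of 11.62 and 10.86 in Ctrl and 10.26 and 8.5 in cKO. cKO replicate 2 was the lowest library, and cKO replicate 1 lay close below the Ctrl libraries, an order of genotypes that 34.6% of all genes tested showed. The means were 11.2 ± 0.537 (SD, n = 2) and 9.38 ± 1.24 (SD, n = 2). The log2 fold change of -0.24 did not pass (standard error 0.0951, 95% interval -0.47 to -0.02 before adjustment over genes, Benjamini-Hochberg adjusted p = 0.106 by limma), and its size depended on the cKO library used, since without cKO replicate 1 it was -0.36 (adjusted p = 0.0442) and without cKO replicate 2 it was -0.12. The adjusted p ranged from 0.0442 to 0.408 over its 11 other settings.

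Of the 6 members, 4 were tested, and of these 1 was called higher and 1 lower, beside 12% and 13.8% of all genes tested, a count too small to set the members apart. In order of FPKM, the Ctrl libraries gave *Thra*, *Slc16a10*, *Thrb*, *Dio2*, *Dio3* and *Dio1*. In the cKO libraries *Dio2* had moved past *Thrb* and *Slc16a10* to the second place, although its lower library, at 10.77, was only just above the higher library of *Slc16a10*, at 10.26. The distances between *Thra* and the others were large in every library, while *Dio3* and *Dio1* could not be ordered in cKO, where both were at 0 in replicate 1.

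**Figure D3:**
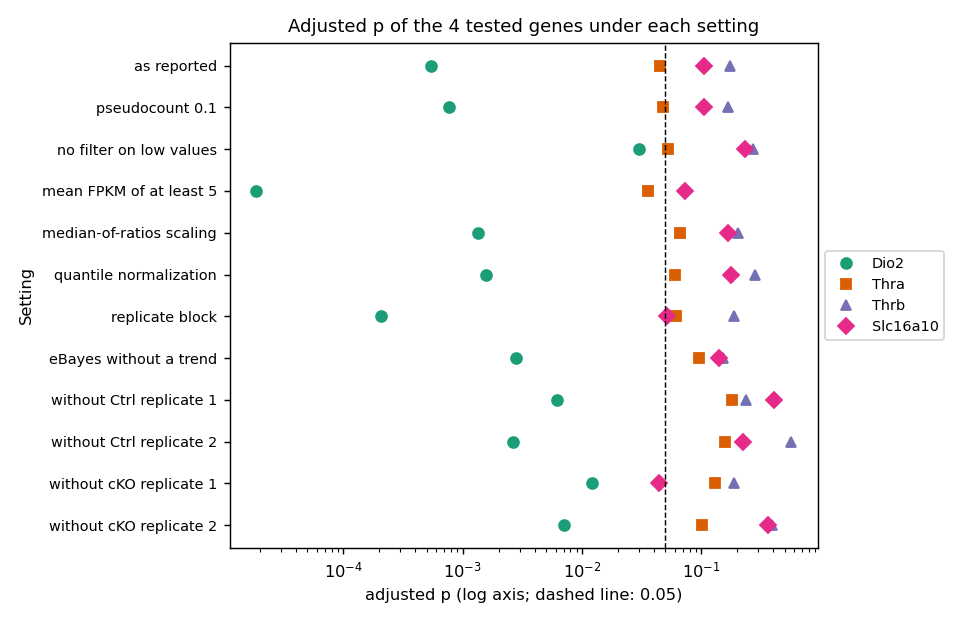
Adjusted p from limma (log axis, dashed line at 0.05) of the 4 tested members under the reported fit and 11 other settings. *Dio2* stays left of the line under every setting, *Thra* is left of it in the reported fit and 2 others, *Thrb* is never left of it and has no value at a mean FPKM of at least 5, and *Slc16a10* is left of it only without cKO replicate 1.

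Beyond the members, 66 genes stand in 11 lists, 9 for other steps of the pathway from import to target genes and 2 for the genes that neighbour *Dio3* and *Thra*. Of the 66 genes 55 were tested, 11 were higher and 9 lower in cKO, which is 36.4% against 25.8% of all genes, and their median log2 fold change was 0, against -0.01 for all genes tested. In the 9 pathway lists alone 50 genes were tested, 10 were higher and 7 lower, or 34%, with a median of 0. Without Ctrl replicate 1 the count was 9 instead of 20. *Ucp1*, *Gpd2*, *Bcl3*, *Ppargc1a*, *Sult1a1*, *Tshr*, *Hr*, *Klf9* and *Meg3* were called in the same direction under every other setting run on them, and the other 11 lost their call without Ctrl replicate 1. Of these, *Slc7a5*, *Slc3a2*, *Rxrb*, *Tbl1x*, *Usp20* and *Rian* also lost it without Ctrl replicate 2, *Slc7a5*, *Slc3a2*, *Rxrb*, *Usp20* and *Atp2a2* without cKO replicate 1, and *Slc7a5*, *Slc3a2* and *Tbl1x* without cKO replicate 2. Without a filter on low values *Slc7a5*, *Slc3a2*, *Tbl1x*, *Usp20* and *Atp2a2* lost their call, and *Slc3a2* also did in eBayes without a trend. None of the 20 changed direction under any setting. In each of them the genotypes did not overlap, as in 31.9% (cKO above) and 34.6% (cKO below) of all genes tested. Only median-of-ratios scaling and quantile normalization could therefore have turned the direction. The lists were chosen with earlier results of these data known, so their share of calls is no independent result. They are counted and not tested as sets.

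Other transporters moved in both directions. Of 6 genes 4 were tested, and 2 were higher and 1 lower, beside 12% and 13.8% of all genes tested. *Slc7a5* and *Slc3a2*, the light and heavy chains of an amino acid exchanger that also carries thyroid hormones, were both higher. *Slc7a5* had means of 2.58 ± 0.106 FPKM in Ctrl and 3.60 ± 0.099 FPKM in cKO, and *Slc3a2* of 59.7 ± 2.94 FPKM in Ctrl and 69.9 ± 1.14 FPKM in cKO (SD, n = 2 each). Their log2 fold changes were 0.36 and 0.22 (Benjamini-Hochberg adjusted p = 0.0261 and 0.0321 by limma). *Slco2b1*, an organic anion transporter, had means of 22.9 ± 1.24 in Ctrl and 16.5 ± 0.962 FPKM in cKO (SD, n = 2 each) and fell by 0.45 on the log2 scale (adjusted p = 0.00465 by limma). *Slc7a8*, with a log2 fold change of 0.38, missed the threshold by little (adjusted p of 0.05 after rounding, limma). *Slco1c1* and *Slco1a4*, transporters known from the blood-brain barrier, were at or under an FPKM of 0.14.

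Of the genes for binding and clearance only *Sult1a1*, a sulfotransferase of phenols and iodothyronines, was expressed highly enough to be tested. It had an FPKM of 93.2 and 89.04 in Ctrl and 46.8 and 54.2 in cKO and fell by 0.84 on the log2 scale (Benjamini-Hochberg adjusted p = 0.000756 by limma), to 0.554 of the Ctrl level. *Crym*, which binds triiodothyronine in the cytosol, had an FPKM of at most 0.79, and *Ttr* and *Iyd* had at most 0.18. *Tshr*, the receptor for thyrotropin, which adipocytes are known to carry, had an FPKM of 29.0 and 29.7 in Ctrl and 16.1 and 18.1 in cKO. It fell by 0.75 on the log2 scale (Benjamini-Hochberg adjusted p = 0.000816 by limma).

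Of the 17 genes that act with the receptors on DNA, 2 were higher and 2 lower, beside 12% and 13.8% of all genes tested. The retinoid X receptors, which form heterodimers with the thyroid hormone receptors, moved in opposite directions. *Rxra* fell, with means of 41.2 ± 1.95 FPKM in Ctrl and 32.0 ± 0.877 FPKM in cKO, and *Rxrb* rose, with means of 24.2 ± 0.0707 FPKM in Ctrl and 29.6 ± 0.636 FPKM in cKO (SD, n = 2 each), at log2 fold changes of -0.35 and 0.28 (Benjamini-Hochberg adjusted p = 0.00688 and 0.0114 by limma). The ratio of *Rxra* to *Rxrb* FPKM was 1.75 and 1.65 in Ctrl and 1.04 and 1.12 in cKO. *Rxrg*, at -0.15, did not pass. Of 8 coactivators 1 passed: *Ppargc1a*, the gene for Pgc1α, had an FPKM of 1.97 and 2.16 in Ctrl and 4.56 and 4.35 in cKO, a log2 fold change of 0.83 (Benjamini-Hochberg adjusted p = 0.00133 by limma). Among the coactivators that did not pass, the most abundant were *Kat2b*, with a log2 fold change of -0.23, and *Med1*, with 0.10. Of 6 corepressor genes 1 passed: *Tbl1x*, a subunit of the corepressor complex, had means of 19.6 ± 1.01 in Ctrl and 15.7 ± 0.629 FPKM in cKO (SD, n = 2 each) and fell by 0.30 on the log2 scale (adjusted p = 0.0172 by limma). *Hdac3* at -0.17 and *Gps2* at 0.05, which belong to the same complex, did not pass.

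Of the genes that make and remove the deiodinase protein, 1 passed, beside 25.8% of all genes tested. Of the 6 genes for selenocysteine insertion 0 passed with limma (1 had an unadjusted p under 0.05), and their log2 fold changes lay between -0.23 and 0.14. The most abundant, *Sephs2*, which makes selenophosphate, had an FPKM of 56.0 and 54.2 in Ctrl and 62.3 and 59.8 in cKO (log2 fold change 0.14, adjusted p = 0.103 by limma), and *Trnau1ap* had a log2 fold change of -0.02. Of 7 genes that attach ubiquitin to the type 2 deiodinase or take it off, 1 was higher. *Usp20*, a deubiquitinating enzyme of this protein, had an FPKM of 4.55 and 5.06 in Ctrl and 7.18 and 5.94 in cKO, a log2 fold change of 0.38 (adjusted p = 0.0361 by limma). *Tceb2* and *Tceb1*, the elongin subunits of the ligase complex, both had a log2 fold change of 0.12 and did not pass.

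Genes known to respond to thyroid hormone did not move together. Of 14 genes, all tested, 5 were higher and 2 lower, beside 12% and 13.8% of all genes tested. The median log2 fold change was 0.06, with a range from -0.71 to 1.99. *Ucp1* rose most, with a log2 fold change of 1.99 (Benjamini-Hochberg adjusted p = 0.000337 by limma), and stood at rank 7 of the 12658 genes. *Gpd2*, the mitochondrial glycerol-3-phosphate dehydrogenase, had means of 82.0 ± 12.3 FPKM in Ctrl and 136 ± 7.56 FPKM in cKO (SD, n = 2 each). *Pck1*, which supplies glycerol phosphate in fat, had means of 523 ± 41.5 FPKM in Ctrl and 810.4 ± 6.45 FPKM in cKO (SD, n = 2 each). Their log2 fold changes were 0.73 and 0.63, and those of *Bcl3* and of the calcium pump gene *Atp2a2* were 0.53 and 0.32. The 2 that were lower, *Klf9* and *Hr*, both encode transcriptional regulators and are used as markers of receptor activity in several tissues. *Hr* had an FPKM of 11.7 and 10.2 in Ctrl and 6.16 and 6.43 in cKO and fell by 0.71 on the log2 scale (adjusted p = 0.0016 by limma). *Klf9* had an FPKM of 30.8 and 30.7 in Ctrl and 22.9 and 23.6 in cKO and fell by 0.39 (adjusted p = 0.00341 by limma). *Thrsp*, a lipogenic gene named for its response to the hormone, was the most abundant of the list, with 3293 and 3214 FPKM in Ctrl and 2837 and 2703 FPKM in cKO, and its log2 fold change of -0.23 did not pass (95% interval -0.45 to -0.01, adjusted p = 0.11 by limma). *Fasn*, with 0.11, did not pass either.

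**Figure D4:**
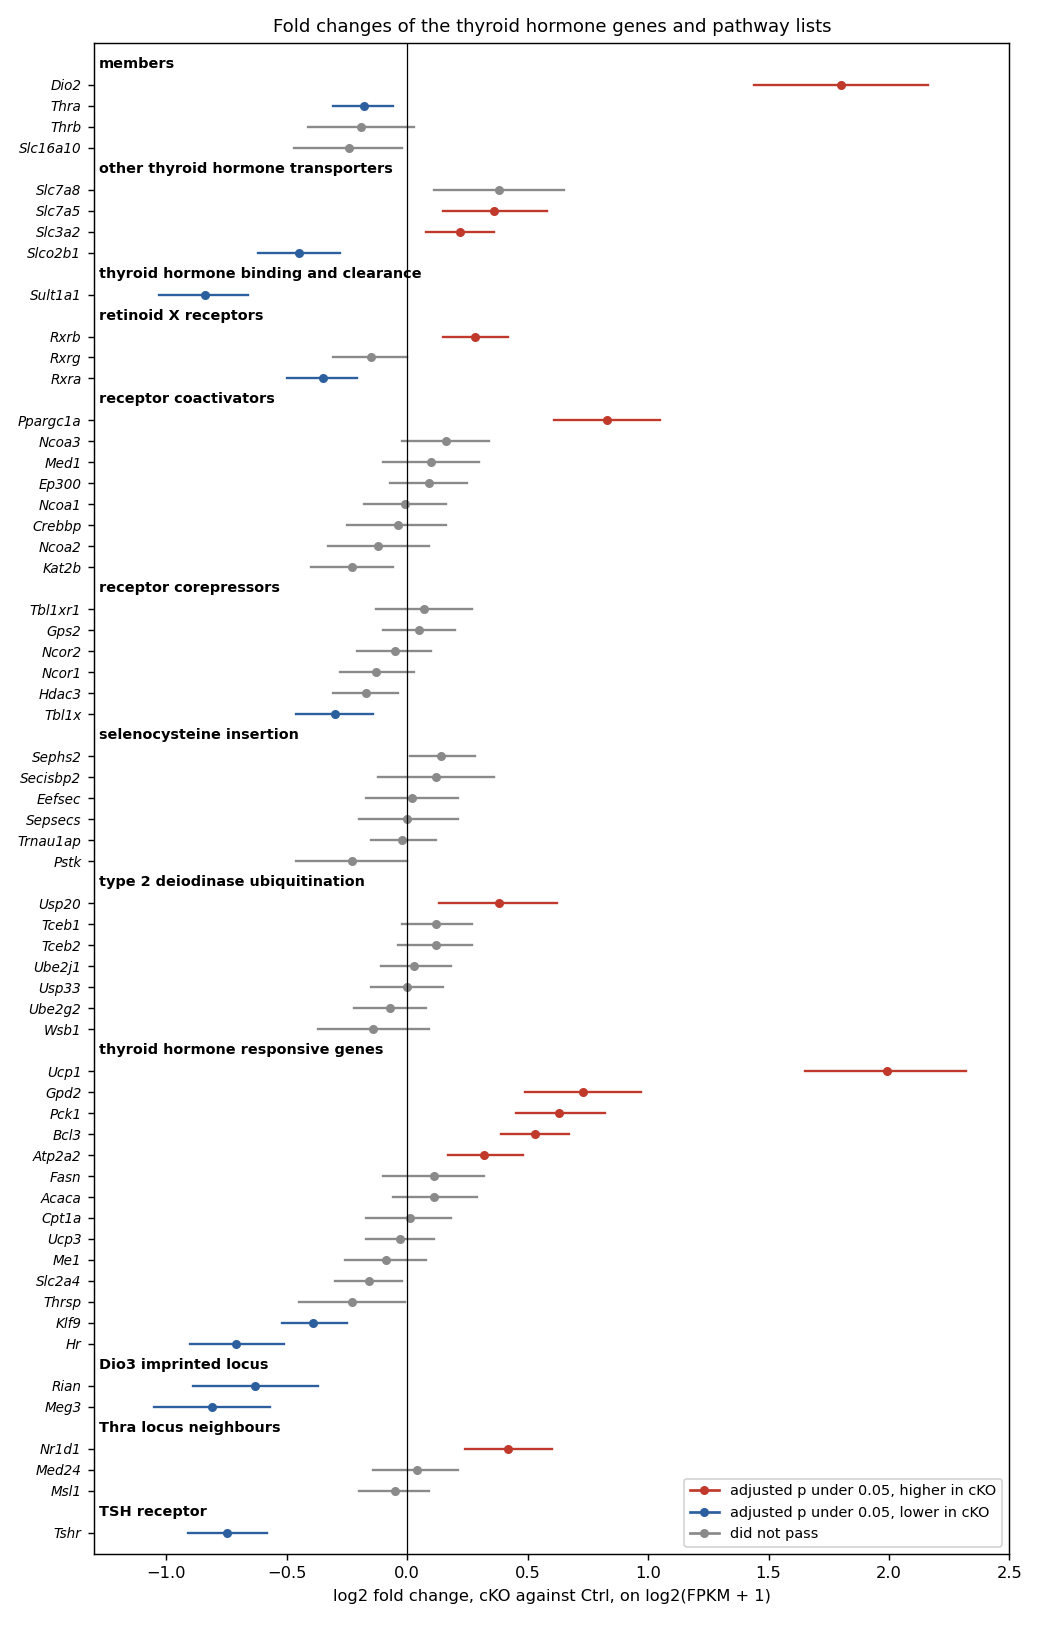
Log2 fold change of cKO against Ctrl on log2(FPKM + 1) with its 95% interval, for the 4 tested members and the 55 tested genes of the 11 pathway and locus lists (red, higher and blue, lower at an adjusted p under 0.05; grey, did not pass). *Dio2* at 1.80 and *Ucp1* at 1.99 stand far to the right of the others shown, which lie between -0.84 and 0.83.

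*Dio3* belongs to an imprinted cluster on chromosome 12, whose other genes were lower in cKO or too low to be tested. *Meg3* and *Rian*, noncoding RNAs of that cluster, were the only 2 of 6 genes that could be tested. *Meg3* had an FPKM of 6.06 and 5.11 in Ctrl and 2.82 and 2.66 in cKO, and *Rian* 2.85 and 2.91 in Ctrl and 1.36 and 1.66 in cKO. They fell by 0.81 and 0.63 on the log2 scale (Benjamini-Hochberg adjusted p = 0.00188 and 0.00657 by limma). *Dio3os*, the antisense transcript of *Dio3*, had an FPKM of 0.65 and 0.44 in Ctrl and 0.32 and 0.37 in cKO, and *Dlk1* had 0.46 and 0.44 in Ctrl and 0.24 in both cKO libraries. Both were under the filter and were not tested, and the values of *Dio3* itself overlapped between the genotypes. Where *Dio3os* and *Dio3* overlap, their reads cannot be told apart without strand.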

How the data were processed

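RNA sequencing of ingWAT gave 2 Ctrl and 2 cKO libraries, grouped by their titles. Per the labels, polyadenylated RNA was read as single ends of 50 bases. The authors deposited FPKM per gene without read counts, and the submitters' processing notes name HISAT2 2.0.4, RSEM 1.2.12 and mm10, with no role or order. How libraries were scaled is not given in the sources used here. The table held no comparisons of the authors and 0 per-sample columns were left unused.

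Genes whose FPKM averaged at least 1 were log-transformed with a pseudocount of 1 and fitted in limma 3.58.1 under R 4.3.3 (eBayes with a trend, no covariates), with Benjamini-Hochberg adjustment over the 12658 genes and a threshold of 0.05. With 2 against 2 libraries an exact two-sided permutation test of 1 gene cannot go below 0.333, so none was run. On simulated data of this comparison with 12658 genes, 50 genes each were changed by a log2 of 0.5, 1, 1.5 and 2. Of these, 27, 42, 47 and 46 were recovered, with 5 false calls in all and 0 when no gene was changed. The simulation changed a far smaller share of genes than the 25.8% called here and drew the noise of each gene separately. Its rates therefore need not hold for these libraries. Identical FPKM in both libraries of a genotype occurred in 0.608% (Ctrl) and 0.64% (cKO) of the tested genes, so no library was a copy of the other.

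The depth estimate used the spacing of the low FPKM of 299 short RNA genes, with 83.2% to 87.3% of values whole within 0.1 of a read, up to 6 reads. On 4 simulated libraries the largest error was 0%. Those were made with the formula of the estimate and with depths among the ones it tries. They therefore do not give its error on these data. Reads behind a value use the mean length of the GENCODE transcripts, or for *Dio3* the RefSeq span of 1868 bases. For *Dio2* the length is the 5815 bases of its GENCODE transcript, which begins 600 bases downstream of the RefSeq start. A longer transcript would give more reads for the same FPKM. These read numbers are therefore estimates, and counts were not tested.

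The members, the gene lists and the marker lists were chosen with earlier results of these data known. Of the list genes, 2 are not reported here and are left out of the counts of the lists. Named are the members, *Slc22a3*, the genes of each list past the threshold with up to 2 of the most abundant others, and the 3 nearest profiles of each called member. Of the responsive genes, *Ucp1* also stands in the list of brown and beige markers. As alternatives, the filter was dropped or raised to an average of 5, the pseudocount lowered to 0.1, the libraries scaled by median of ratios or quantile normalized, the replicate number added as a block, the variance trend left off, and every library omitted once. Promoter windows and loci are from RefSeq (GRCm38.p6), transcripts and selenocysteine codons from GENCODE M21. Python 3.11.15 with pandas 2.3.3 and matplotlib 3.10.9 was used for the sequences and figures.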

Additional observations from a re-analysis of the deposited data

How the results depend on the processing

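*Dio2* kept its call under all 11 alternatives, with log2 fold changes from 1.55 to 2.12 and adjusted p from 1.87e-05 to 0.0298 (limma). *Thra* lost its call without a filter (-0.18), with median-of-ratios scaling (-0.17), after quantile normalization (-0.16), in eBayes without a trend (-0.18) and with any library left out (-0.19 to -0.17). The causes were not tested. *Slc16a10* ranged from -0.36 to -0.12 with a library left out, and passed without cKO replicate 1. *Thrb* passed under none of 10 alternatives (-0.27 to -0.12, adjusted p from 0.153 to 0.567 by limma), and a mean FPKM of at least 5 removed it. *Dio1* and *Dio3*, under the filter, had log2 differences of 0.02 and -0.10, which became 0.19 and -0.66 with a pseudocount of 0.1 and ranged from 0 to 0.04 and from -0.18 to -0.02 with a library left out. In the fit without a filter they did not pass (limma, adjusted p = 0.67 and 0.406), and the settings that need the filtered table gave them no value.

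The 3269 calls over all genes became 1762 without a filter and 877 to 2429 with a library left out, with 877 without Ctrl replicate 1, 1531 without Ctrl replicate 2 and 2165 without cKO replicate 1. A fit on fewer libraries has 1 residual degree of freedom, and its lone library is assumed to vary like the other genotype. The 20 calls in the pathway and locus lists became 9 to 17 with a library left out. The share of higher calls was 46.5%, 49.7% with median-of-ratios scaling and 50.8% after quantile normalization. Deviations of same-numbered libraries did not go together (r = 0.0148 across genes, 2 pairs), so the numbers were not taken as pairs. With the replicate as a block, *Thra* had -0.18 (adjusted p = 0.0609 by limma), *Dio2* 1.80, and 3383 genes were called, 22 of them in the pathway and locus lists. Depth limits *Dio1* and *Dio3*, whose values rest on at most 5 reads.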

Other observations

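The study's primers for *Dio2* in real-time PCR, AATTATGCCTCGGAGAAGACCG and GGCAGTTGCCTAGTGAAAGGT, match bases 443 to 464 and 547 to 567 of the GENCODE M21 transcript of *Dio2* and span 125 bases. Among all transcripts of that annotation both match 1 gene, *Dio2*. The same pair is also listed for *Eno1* in the study's primer list, so that 2 genes carry it there.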
